A study of Mus musculus with 12 samples.

Results

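The granulosa identity genes examined here are 8 genes chosen by name. They are the transcription factor genes Wt1, Foxl2, Nr5a1, Nr5a2, Gata4, Gata6 and Esr2, and the receptor gene Amhr2. Of the 8, 7 had a value under their own gene ID in at least 1 library, among 13318 genes with a value in the series, and 6 had one in every library and entered the test of 9022 genes. RNA was sequenced from cumulus cells of Kunming mice, which the labels also describe as granulosa cells of antral follicles. One group of 3 libraries came from cells given FSH and fetal bovine serum (FBS) together over 18 hours, and the other group of 3 libraries came from cells labelled untreated. No culture time is given for the untreated cells, so time in culture, FSH and FBS cannot be told apart, and nothing in the labels tells if the untreated complexes still held their oocyte. The labels name no separate animals or cultures, so p-values measure the spread between libraries, which may be technical.

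Granulosa cells are the somatic cells of the follicle, and cumulus cells are the granulosa cells that surround the oocyte. Wt1, Nr5a1 (steroidogenic factor 1) and the GATA factors act early in the gonad of both sexes, and Foxl2 together with the estrogen receptors keeps adult mouse granulosa cells from taking on a Sertoli cell program. Nr5a2 (liver receptor homolog 1) is needed in mouse granulosa cells for ovulation and luteinization, during which follicle cells turn into progesterone-producing cells.

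Libraries 1 and 2 of each group were closer to each other than any other pair. Their median absolute log2 ratio over the tested genes was 0.122 in the FSH and FBS group and 0.145 in the untreated group, while other pairs of one group stood at 0.456 to 0.552. They were averaged and counted as 1 sample, so means and SDs have n = 2. Between the groups, pairs among libraries 1 and 2 stood at 0.452 to 0.461, and pairs with a library 3 at 0.633 to 0.731. Within a group, library 3 thus differed from libraries 1 and 2 as much as these differed between the groups, or more. The deposited tables list 63940 to 85853 transcript events per library in FPKM (fragments scaled by transcript length and library size), FSH and FBS library 3 the fewest, and give no counts, so depth is unknown. FSH and FBS library 3 also had the highest summed first-exon FPKM, 362638, against 249116 to 261541 in the other libraries. Its last-exon sum was 320301, against 203557 to 212547. Values entered the test without rescaling. The table of untreated library 2 used other locus names than the rest. It also placed 1.8% to 2.03% of shared cassette exons under another gene ID, against 0% between any pair of the other 5 tables.

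After FSH and FBS, Wt1 was the 1 gene of the 6 tested members that passed the test, and it was lower. Of all genes tested, 2.37% passed and 0.687% passed as lower (limma, Benjamini-Hochberg adjusted p under 0.05). Nr5a2 stood higher and Gata6 and Amhr2 lower in every FSH and FBS library than in any untreated one without passing, while Nr5a1 and Gata4 overlapped. Libraries of the groups did not overlap for 4 of 6 members, 1 higher and 3 lower, and this was so for 38.9% of all genes tested (29.4% higher, 9.54% lower). The median log2 fold change was -0.33 over the 6 members and 0.24 over all genes. Fold changes are of FPKM + 1, FSH and FBS over untreated, and understate the change of low genes. In RNA from a mixture, fewer cells of a type and less RNA per cell cannot be told apart.

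**Figure D1:**
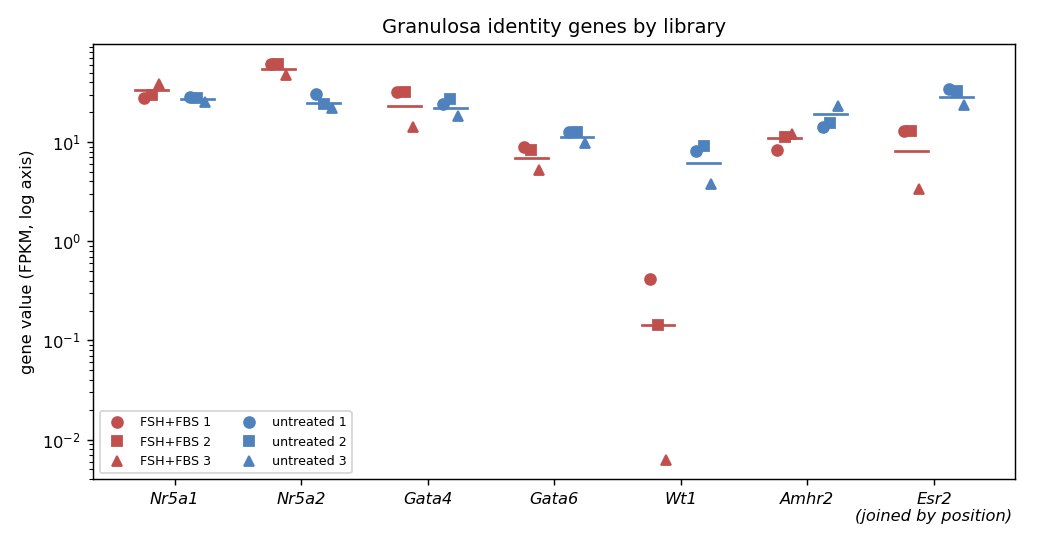
Gene values in FPKM on a log axis for 7 of the 8 genes, with FSH and FBS libraries (red) left of untreated libraries (blue), a symbol per library and a bar at the group mean after libraries 1 and 2 were averaged. Wt1 lies below 0.42 FPKM in all 3 FSH and FBS libraries and above 3.7 FPKM in all 3 untreated ones. Foxl2 is unlisted and not drawn.

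Wt1 (ENSMUSG00000016458) encodes the zinc finger factor WT1, which is made by granulosa cells of growing follicles. Its events lay on chr2:105126421-105173616, plus strand, in the coordinates of the deposited tables, whose build is not given in the sources used here. Wt1 had 0.419, 0.145 and 0.00628 FPKM in FSH and FBS libraries 1, 2 and 3, against 8.04, 9.03 and 3.73 FPKM in untreated libraries 1, 2 and 3. The groups were far apart, and library 3 was the lowest of each. The means were 0.144 ± 0.195 FPKM in FSH and FBS cells and 6.13 ± 3.40 FPKM in untreated cells (SD, n = 2 each), the untreated mean being 42.6 times as high. This ratio was 81.3 without FSH and FBS library 1 and 21.8 without FSH and FBS library 3, and 28.9 to 59.3 with any other library left out. The log2 fold change was -2.57 (SE 0.45, 95% interval -3.61 to -1.52; limma adjusted p = 0.0295), and it was -2.81 relative to the median of all genes. Only 0.41% of the genes tested had a lower log2 fold change. Leaving out library 1 or 2 of a group still leaves 2 samples, and the call then held (limma adjusted p 0.0257 to 0.0407). Leaving out a library 3 leaves 1 sample in its group. The log2 fold change was -2.40 without FSH and FBS library 3 and -3.07 without untreated library 3. The call did not hold under rescaling to equal sums (limma adjusted p = 0.0599) or by median of ratios (limma adjusted p = 0.0561), where the log2 fold changes were -2.67 and -2.70. It was also lost with first-exon sums only (limma adjusted p = 0.126) and with unlisted genes as 0 (limma adjusted p = 0.0862).

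The antisense partner of Wt1, Wt1os, was unlisted in all 3 FSH and FBS libraries and had 1.18, 1.66 and 1.18 FPKM in untreated libraries 1, 2 and 3. Whether reads were assigned by strand is not given in the sources used here, so part of either signal may belong to the other gene.

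Wt1 is spliced at 2 well-known places. Use of a 9-base longer end of exon 9 adds 3 amino acids, lysine, threonine and serine (KTS), between zinc fingers. The form without KTS binds DNA more readily. Exon 5 adds 17 amino acids in mammals. The KTS bases lay at chr2:105170010-105170018. In FSH and FBS cells only library 1 listed either of the 2 usual ends, the one with KTS, at 0.354 FPKM. In untreated libraries 1, 2 and 3 the form with KTS held 71.4%, 74.1% and 54.9% of the summed FPKM of both ends, a mean of 63.8% ± 12.6 (SD, n = 2). Both ends were thus listed in every untreated library, with the KTS form above the other in each.

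Exon 5 lay at chr2:105144142-105144192. FSH and FBS library 1 again listed the form that includes it, at 0.354 FPKM, and libraries 2 and 3 listed neither form. The form with exon 5 held 19.6%, 26.1% and 83.0% of the FPKM of both forms in untreated libraries 1, 2 and 3, a mean of 52.9% ± 42.5 (SD, n = 2). Untreated library 3 thus stood far from the near-identical libraries 1 and 2, and the untreated share of exon 5 was not settled by these samples. The KTS and exon 5 shares were not tested between the groups, since FSH and FBS libraries 2 and 3 listed neither form of each pair.

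**Figure D2:**
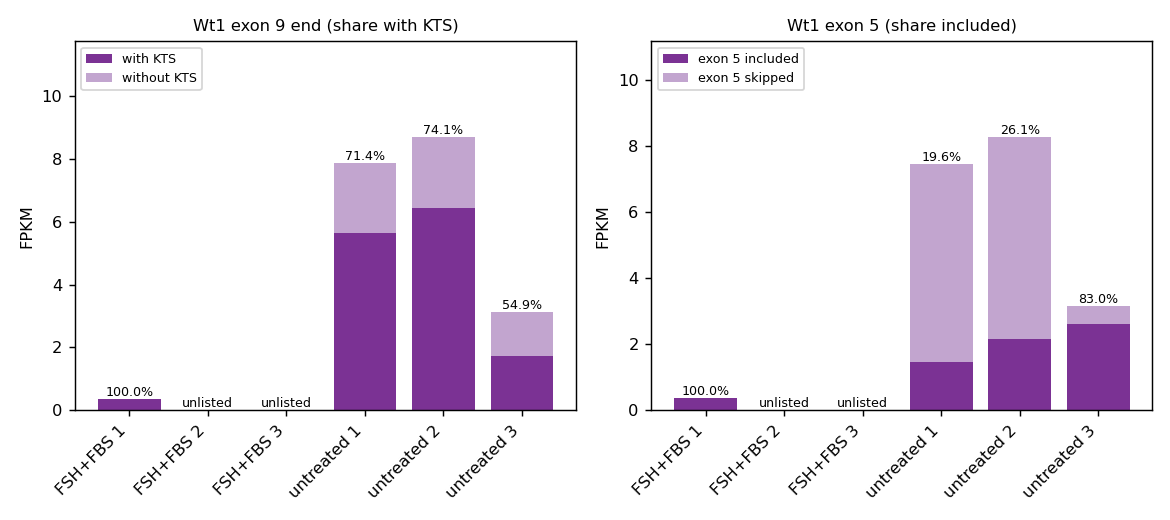
Wt1 FPKM by library, FSH and FBS libraries left of untreated ones, split by the end of exon 9 (left panel) and by exon 5 (right panel); the percentage above each bar is the share of the dark form. FSH and FBS library 1 has 0.354 FPKM of 1 form in each panel and libraries 2 and 3 list neither form, while the untreated libraries list both forms in both panels.

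The start of the gene also differed in what was listed. The first exon upstream of all others carried 84.5%, 0% and 0% of the first-exon FPKM in FSH and FBS libraries 1, 2 and 3, against 92.7%, 86.1% and 84.2% in untreated libraries 1, 2 and 3. An exact two-sided permutation test of this share gave p = 0.33, the smallest that 2 samples against 2 allow. In FSH and FBS library 2 nearly all first-exon signal, 0.138 FPKM, came from a start before exon 6, and in library 3 all of it, 0.00628 FPKM, came from a start inside intron 1. The value of Wt1 in FSH and FBS libraries 2 and 3 therefore rests on start exons alone, with no last exon listed in either. Another end of exon 9, 2 bases past the short one, held 15.3% and 100% in FSH and FBS libraries 1 and 2, at 0.0637 and 0.138 FPKM, and 1.30%, 1.38% and 4.17% in untreated libraries 1, 2 and 3. Retention of the intron before exon 9 was listed at 14.4% and 25.6% in untreated libraries 1 and 2. It was unlisted in untreated library 3 and in FSH and FBS libraries 1 and 2, which listed the spliced form.

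Nr5a1 and Nr5a2 encode related nuclear receptors that bind the same DNA motif and drive genes of steroid synthesis. Nr5a1 (ENSMUSG00000026751, chr2:38701322-38714542, minus strand) had 27.9, 29.7 and 38.5 FPKM in FSH and FBS libraries 1, 2 and 3, against 28.5, 27.9 and 25.6 FPKM in untreated libraries 1, 2 and 3. The groups overlapped, with FSH and FBS library 3 the highest. The means were 33.6 ± 6.86 and 26.9 ± 1.88 FPKM in the FSH and FBS and in the untreated group (SD, n = 2 each). Its log2 fold change was 0.30, near the median of all genes, with a 95% interval of -0.51 to 1.11 (limma adjusted p = 0.716). It was 0.0009 with libraries scaled to equal sums, and quantile normalization turned its sign to -0.064. Its last exon was barely listed, at 0.0606 to 0.423 FPKM over all 6 libraries, so the value is that of its first exons. A longer end of 1 exon was listed in FSH and FBS library 2 at 11.9% and in untreated libraries 1 and 2 at 10.5% and 11.5%. It was unlisted in FSH and FBS libraries 1 and 3 and in untreated library 3.

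Nr5a2 (ENSMUSG00000026398, chr1:136844276-136953824, minus strand) had 61.4, 61.0 and 47.6 FPKM in FSH and FBS libraries 1, 2 and 3, against 30.2, 24.3 and 22.1 FPKM in untreated libraries 1, 2 and 3. All FSH and FBS libraries lay above all untreated ones. The means were 54.4 ± 9.62 FPKM in FSH and FBS cells and 24.7 ± 3.65 FPKM in untreated cells (SD, n = 2 each), a ratio of 2.21. Its log2 fold change was 1.11 (SE 0.35, 95% interval 0.29 to 1.93) and did not pass (limma adjusted p = 0.181), and 91.6% of the genes tested stood lower. With all 6 libraries taken as separate replicates it passed (limma adjusted p = 0.0124), in a fit that called 14.7% of all genes.

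The 2 ends of Nr5a2 gave different pictures. The values above are last-exon sums. The first-exon sums were 57.4, 58.2 and 4.95 FPKM in FSH and FBS libraries 1, 2 and 3, against 28.1, 15.2 and 11.98 FPKM in untreated libraries 1, 2 and 3. In FSH and FBS library 3 the first exons thus held far less than the last exons, and on first-exon sums alone the log2 fold change was 0.16. The start also moved within the untreated group. An inner first exon at chr1:136949385-136949562 held over 99% of minus-strand first-exon FPKM in FSH and FBS libraries 1, 2 and 3 and in untreated libraries 1 and 2, and an upstream one at chr1:136953494-136953824 held all of it in untreated library 3. A plus-strand first exon under the same ID, at 0.587 FPKM in untreated library 3, was left out of these shares.

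**Figure D3:**
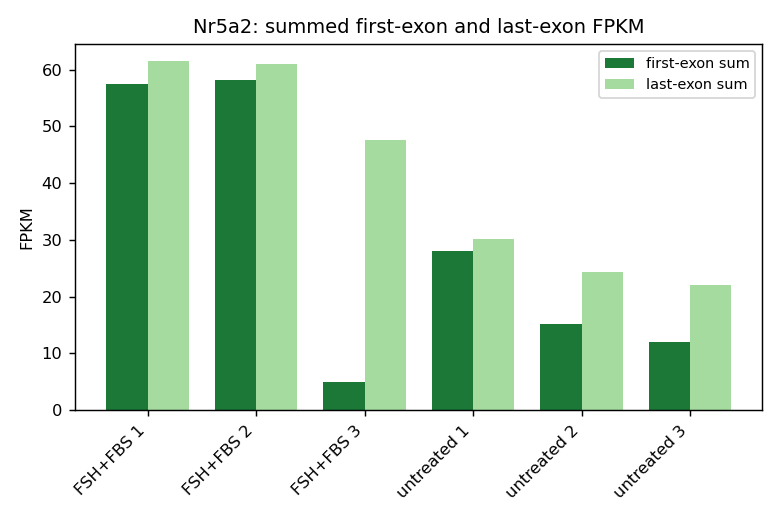
Summed FPKM of the first exons (dark) and last exons (light) of Nr5a2 by library, FSH and FBS libraries left of untreated ones. The last-exon sums of the FSH and FBS libraries, 47.6 to 61.4, all lie above the untreated ones, 22.1 to 30.2, while the first-exon sum of FSH and FBS library 3 drops to 4.95.

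Gata4 and Gata6 encode zinc finger factors that bind GATA motifs and act together in mouse granulosa cells. Gata4 (ENSMUSG00000021944, chr14:63198922-63245248, minus strand) had 31.6, 31.6 and 14.2 FPKM in FSH and FBS libraries 1, 2 and 3, against 23.9, 27.3 and 18.5 FPKM in untreated libraries 1, 2 and 3. FSH and FBS libraries held both the highest and the lowest value. The log2 fold change of -0.03 had a 95% interval of -1.06 to 1.0 (limma adjusted p = 0.984), and it was 0.52 without FSH and FBS library 3. A single start and a single end were listed in every library.

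Gata6 (ENSMUSG00000005836, chr18:11051503-11085635, plus strand) had 8.81, 8.37 and 5.25 FPKM in FSH and FBS libraries 1, 2 and 3, against 12.5, 12.5 and 9.70 FPKM in untreated libraries 1, 2 and 3. The FSH and FBS libraries all lay below the untreated ones, with library 3 the lowest of each group. The means were 6.92 ± 2.36 FPKM in FSH and FBS cells and 11.1 ± 1.99 FPKM in untreated cells (SD, n = 2 each). Gata6 had a log2 fold change of -0.63 with a 95% interval of -1.53 to 0.26 (limma adjusted p = 0.462), and it was -0.33 without FSH and FBS library 3. Its main first exon held 75.2%, 85.3% and 56.8% of first-exon FPKM in FSH and FBS libraries 1, 2 and 3, against 84.9%, 74.98% and 79.8% in untreated libraries 1, 2 and 3, and these shares overlapped.

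Esr2 encodes estrogen receptor beta, the main estrogen receptor of granulosa cells. Under its own ID (ENSMUSG00000021055) Esr2 was listed only in untreated library 2, at 32.5 FPKM, and it was unlisted in the other 5 libraries. Those 5 tables hold the same exons on chr12:76110933-76177259, minus strand, with an identical first exon at chr12:76176947-76177259, under the ID of Gm7862, a pseudogene inside Esr2. Joined by position, a step chosen after the data were seen, Esr2 had 12.998, 12.8 and 3.36 FPKM in FSH and FBS libraries 1, 2 and 3, against 34.2, 32.5 and 23.6 FPKM in untreated libraries 1, 2 and 3. All FSH and FBS libraries lay below all untreated ones. The means were 8.14 ± 6.76 FPKM in FSH and FBS cells and 28.5 ± 6.84 FPKM in untreated cells (SD, n = 2 each). The log2 fold change was -1.90 (SE 0.55, 95% interval -3.17 to -0.63) and did not pass (limma adjusted p = 0.142). It was -1.06 without FSH and FBS library 3, and it passed with 6 separate libraries (limma adjusted p = 0.0491).

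An alternative Esr2 exon of 54 bases at chr12:76140198-76140251 adds 18 amino acids to the hormone-binding part of the rodent receptor, the form known as ERbeta2, which binds estradiol less tightly. It was included in 40.7%, 13.5% and 0% in FSH and FBS libraries 1, 2 and 3, against 41.0%, 35.9% and 23.2% in untreated libraries 1, 2 and 3. The groups overlapped, at 13.6% ± 19.2 in FSH and FBS cells and 30.8% ± 10.8 in untreated cells (SD, n = 2 each). An Esr2 intron of 10482 bases at chr12:76123328-76133809 was retained in some forms. The retained form held 30.2%, 19.3% and 0% in FSH and FBS libraries 1, 2 and 3, against 40.1%, 35.9% and 31.9% in untreated libraries 1, 2 and 3, with no overlap. In untreated library 2 it had 11.66 FPKM retained and 20.79 FPKM spliced, nearly the values with and without the 54-base exon. The shares of the exon and of the intron may thus not be separate events. The exact two-sided permutation p was 0.33 for the retained intron, again the smallest possible, and 0.667 for the 54-base exon, among 11 shares of the members' forms tested in this way. FSH and FBS library 3, which listed the fewest events, listed neither the 54-base exon nor the retained intron, and the part of unlisted forms in these shares was not tested.

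**Figure D4:**
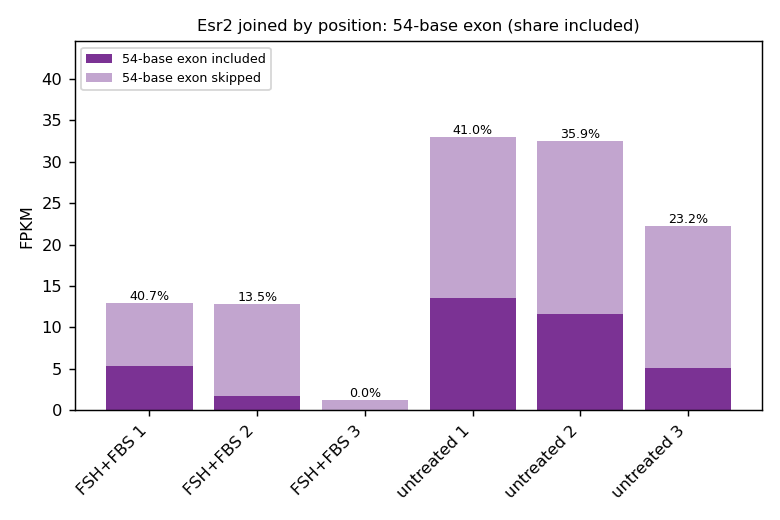
Esr2 FPKM by library after joining by position, FSH and FBS libraries left of untreated ones, split into forms with (dark) and without (light) the 54-base exon; the percentage above each bar is the share with it. The light form is lower in every FSH and FBS library than in any untreated one, the dark form overlaps between the groups, and the shares with the exon, 0% to 40.7%, overlap those of untreated cells, 23.2% to 41.0%.

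Foxl2 (ENSMUSG00000050397), the forkhead factor that maintains the granulosa fate, was unlisted in all 6 libraries. The gene has no intron, and of 17 well-known intronless genes, picked for this check after the data were seen, 0 were listed in any library. The absence therefore says nothing of its level. In untreated library 2 a plus-strand first exon over its position, chr9:98955299-98957148, was listed under the ID of Faim at 17.4 FPKM. The divergent neighbour Foxl2os had first-exon sums of 24.9, 21.0 and 6.47 FPKM in FSH and FBS libraries 1, 2 and 3, against 44.1, 17.4 and 17.9 FPKM in untreated libraries 1, 2 and 3, and the groups overlapped. In untreated library 2 the last-exon sum of Foxl2os was larger, at 32.7 FPKM. Elsewhere that sum was at most 2.49 FPKM or unlisted, and on the larger of both sums the groups still overlapped.

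Amhr2 (ENSMUSG00000023047, chr15:102445367-102454630, plus strand) encodes the type 2 receptor for anti-Müllerian hormone, a granulosa product that restrains follicle growth. It had 8.30, 11.3 and 11.9 FPKM in FSH and FBS libraries 1, 2 and 3, against 14.2, 15.7 and 23.0 FPKM in untreated libraries 1, 2 and 3. All FSH and FBS libraries lay below all untreated ones. The means were 10.9 ± 1.49 FPKM in FSH and FBS cells and 19.0 ± 5.67 FPKM in untreated cells (SD, n = 2 each). Amhr2 had a log2 fold change of -0.73 with a 95% interval of -1.60 to 0.13 (limma adjusted p = 0.381), and it was -0.44 without untreated library 3. Its first exon was listed only in untreated library 2, so the values are last-exon sums. A form that skips 2 neighbouring exons held 8.70%, 0% and 3.28% in FSH and FBS libraries 1, 2 and 3, against 5.93%, 7.61% and 6.64% in untreated libraries 1, 2 and 3.

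**Figure D5:**
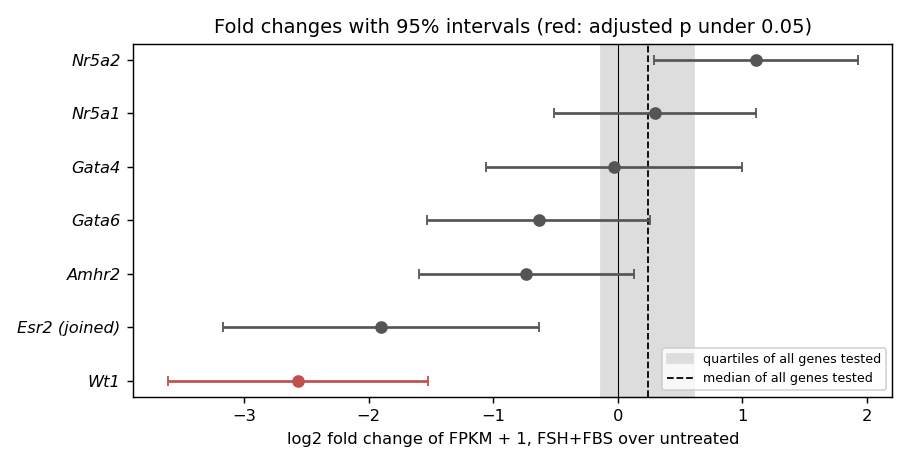
Log2 fold change of FPKM + 1, FSH and FBS over untreated, with 95% intervals for the 6 tested genes and for Esr2 joined by position; the dashed line is the median of all genes tested, 0.24, and the grey band the range between their quartiles. Wt1, in red, is the gene with a limma adjusted p under 0.05, and the intervals of Esr2 and Nr5a2 leave out 0 although neither passed after adjustment.

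FPKM is scaled for length, so levels may be set in order between genes, though the value is a first-exon sum for some genes and a last-exon sum for others. In FSH and FBS cells the order of mean FPKM was Nr5a2 at 54.4, Nr5a1 at 33.6, Gata4 at 22.9, Amhr2 at 10.9, joined Esr2 at 8.14, Gata6 at 6.92 and Wt1 at 0.144. In untreated cells joined Esr2 came first at 28.5, followed by Nr5a1 at 26.9, Nr5a2 at 24.7, Gata4 at 22.0, Amhr2 at 19.0, Gata6 at 11.1 and Wt1 at 6.13. In untreated cells each of the first 5 overlapped its neighbour in the order, so that only Gata6 and Wt1 stood apart from the gene above them. In FSH and FBS cells Nr5a2 stood above Nr5a1 in every library and Wt1 below all others, while Nr5a1 overlapped Gata4, Amhr2 overlapped Esr2 and Esr2 overlapped Gata6. The Nr5a2 values are last-exon sums and the Nr5a1 values first-exon sums. On first-exon sums FSH and FBS library 3 had 4.95 FPKM of Nr5a2 and 38.5 FPKM of Nr5a1, the reverse order.

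Promoter sequences from RefSeq (GRCm38.p6) were at hand for 4 of the 8 genes, Nr5a2, Foxl2, Esr2 and Amhr2. The 250 bases before the start are shown for Esr2 and Amhr2, because these RefSeq starts fall exactly on the outer edge of a first exon listed in the tables. For Esr2 this held in all 6 libraries and for Amhr2 in untreated library 2. Capitals mark a match to the NR5A motif AAGGTCA, searched on both strands. Sequences run 5′ to 3′ on the strand of the gene, Esr2 at chr12:76177260-76177509 (minus) and Amhr2 at chr15:102445117-102445366 (plus).
Esr2: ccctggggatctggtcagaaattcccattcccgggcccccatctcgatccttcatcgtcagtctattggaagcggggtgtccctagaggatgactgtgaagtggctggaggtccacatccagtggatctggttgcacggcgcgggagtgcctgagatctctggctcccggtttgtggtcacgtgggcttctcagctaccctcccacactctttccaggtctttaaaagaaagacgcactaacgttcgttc
Amhr2: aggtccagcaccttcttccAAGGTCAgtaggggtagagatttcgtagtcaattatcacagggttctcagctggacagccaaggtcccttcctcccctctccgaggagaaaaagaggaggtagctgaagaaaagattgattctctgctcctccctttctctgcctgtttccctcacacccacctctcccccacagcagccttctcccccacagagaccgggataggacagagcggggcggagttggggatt
The Amhr2 window held 1 match, 231 bases before the start, and the Esr2 window held none. Of 32851 promoter windows of this length in the table, 4.08% held the motif. Searched the same way, the GATA motif AGATAA was in 9.99% of all windows, the forkhead motif GTAAACA in 3.17% and the WT1 motif GCGTGGG in 4.3%, and neither printed window held any of these.

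Of 21 genes known as targets of NR5A1 or NR5A2, 11 were tested, and 5 rose and 0 fell (limma; 6 higher and 2 lower at an unadjusted p under 0.05, which 16.4% of all genes reached), with 1.68% of all genes called higher. The median log2 fold change of the 11 was 1.65, against 0.24 over all genes. The list was chosen with earlier results of these data known, so its count and median are no test of NR5A targets as a class. Vnn1, a pantetheinase gene, had 217.1, 223.8 and 215.2 FPKM in FSH and FBS libraries 1, 2 and 3, against 19.6, 18.3 and 21.8 FPKM in untreated libraries 1, 2 and 3. Its log2 fold change was 3.36 (SE 0.35; limma adjusted p = 0.00554). Scarb1, which encodes the HDL receptor for cholesterol uptake, followed at 3.14. Fdx1, the electron donor of cholesterol side-chain cleavage, stood at 3.09, Ptgs2, the inducible prostaglandin synthase, at 2.45 and Cyp11a1, the side-chain cleavage enzyme, at 2.01. The count was 2 without untreated library 3 and 2 by median of ratios, and the Vnn1 and Scarb1 calls held under every alternative run. Without untreated library 3 the calls of Fdx1, Ptgs2 and Cyp11a1 were lost, and that of Cyp11a1 was also lost without FSH and FBS library 1 and without untreated library 1 or 2. Several of these genes also mark luteal cells. Of 5 tested luteal markers 4 rose (Akr1c18, Sfrp4, Parm1 and Scarb1), and the list summed to 1939 to 2506 FPKM in FSH and FBS cells and 530.2 to 1230 FPKM in untreated cells. Most of this sum was Hsd3b1, a progesterone synthesis gene that did not pass (limma adjusted p = 0.464). Without it the sums were 462.4 to 602.3 FPKM in FSH and FBS cells and 43.2 to 56.1 FPKM in untreated cells. Of the luteal markers not tested, Prlr was unlisted in all 6 libraries. Lhcgr had 0.337 and 0.148 FPKM in FSH and FBS libraries 1 and 2 and was unlisted in library 3. In untreated libraries 1, 2 and 3 Lhcgr had 0.125, 0.406 and 0.617 FPKM. Ptgfr was listed only in FSH and FBS libraries. Star had 8.36 to 13.4 FPKM in FSH and FBS cells and at most 2.35 FPKM in untreated cells. The part of either NR5A receptor in these values was not tested. Nr0b1, which encodes DAX1, a repressor partner of NR5A1, was unlisted in all 3 FSH and FBS libraries and had 2.70, 3.72 and 2.04 FPKM in untreated libraries 1, 2 and 3.

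Of 22 cofactors and modulators of these factors 11 were tested and 0 passed (limma; 0 higher and 2 lower at an unadjusted p under 0.05, against 16.4% of all genes). Zfpm2, which encodes FOG2, the partner of GATA4, had 2.17, 2.41 and 1.08 FPKM in FSH and FBS libraries 1, 2 and 3, against 8.02, 9.49 and 5.22 FPKM in untreated libraries 1, 2 and 3. The groups did not overlap, but the log2 fold change of -1.57 did not pass (limma adjusted p = 0.119). Cbx2, a polycomb gene, stood at -1.01 and Ctnnb1, the beta-catenin gene, at 0.75, and neither passed.

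In the AMH and BMP receptor pathway 16 of 17 genes were tested and 0 passed (limma; 3 higher and 2 lower at an unadjusted p under 0.05, against 16.4% of all genes), with a median log2 fold change of -0.21. Amh, the ligand of AMHR2, had 4.78, 4.37 and 12.6 FPKM in FSH and FBS libraries 1, 2 and 3, against 1.28, 1.49 and 2.38 FPKM in untreated libraries 1, 2 and 3. The ligand was thus higher in every FSH and FBS library while the receptor was lower in each, and neither passed (log2 fold change of Amh 1.62; limma adjusted p = 0.165). Smad6, an inhibitory SMAD gene, stood at -1.46, Bmpr2, a type 2 BMP receptor gene, at -2.07 and Id1, a common BMP target, at 1.08, none of which passed. Among steroid hormone receptors and related genes 3 of 9 were tested and 0 passed (limma; 0 at an unadjusted p under 0.05). Among them were Pgrmc2 at 0.57 and Pgrmc1 at -0.14.

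Of 19 other granulosa and cumulus markers 13 were tested, and 1 rose and 1 fell, where 1.68% of all genes rose and 0.687% fell. At an unadjusted p under 0.05 in limma, 3 were higher and 4 lower, against 16.4% of all genes. The median log2 fold change of the 13 was -0.03. Runx1, a transcription factor gene, averaged 66.6 ± 5.08 FPKM in FSH and FBS cells and 15.8 ± 6.72 FPKM in untreated cells (SD, n = 2 each; log2 fold change 2.06, limma adjusted p = 0.0398). Kctd14, a granulosa marker, averaged 1.64 ± 0.226 FPKM in FSH and FBS cells and 11.4 ± 4.89 FPKM in untreated cells (SD, n = 2 each; log2 fold change -2.19, limma adjusted p = 0.0366). Neither call held under the 3 rescalings, without FSH and FBS library 1 or without untreated library 3, and that of Runx1 was also lost without untreated library 2. Serpine2, a protease inhibitor gene, stood at 1.66 (limma adjusted p = 0.118). Inha, the inhibin alpha gene, was at 276.1 to 282.1 FPKM in FSH and FBS cells and 349.7 to 502.5 FPKM in untreated cells. It did not pass (limma adjusted p = 0.567). Inha was thus listed in every library, but other markers of the list were not. Inhbb was unlisted in every library, Nr0b1 in every FSH and FBS library and Kitl in FSH and FBS library 3. Cyp19a1 was listed only in FSH and FBS libraries 1 and 2.

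Markers of other cells were set beside these values. Sox9, Sox8 and Dmrt1, defining genes of Sertoli cells, were unlisted in all 6 libraries. Of the 14 Sertoli-side markers 6 were listed in some library, with sums of 88.3 to 98.7 FPKM in FSH and FBS cells and 534.4 to 590.4 FPKM in untreated cells, nearly all from Clu, which fell (limma adjusted p = 0.0186). The other 2 tested did not pass: Aard had 2.85, 2.76 and 8.08 FPKM in FSH and FBS libraries 1, 2 and 3, against 1.06, 1.08 and 1.90 FPKM in untreated libraries 1, 2 and 3 (log2 fold change 1.26), and Dhh had a log2 fold change of 0.39, the median of the 3. Ptgds, which was not tested, was unlisted in all 3 FSH and FBS libraries and had 0.954, 1.03 and 3.56 FPKM in untreated libraries 1, 2 and 3. Markers of mesothelium and surface epithelium, cells that also express Wt1, summed to 145.4 to 258.9 FPKM in FSH and FBS cells and 29.7 to 37.6 FPKM in untreated cells. Of 12 such markers 5 were listed in some library; nearly all of the sum was the keratin genes Krt8 and Krt18, both of which rose, and Msln and Upk1b were unlisted. Theca and stroma markers, with 10 of 14 listed, summed to 35.8 to 41.6 FPKM in FSH and FBS cells and 73.2 to 97.2 FPKM in untreated cells, with Acta2 the 1 call, lower, and Cyp17a1 at most 0.032 FPKM. Without Acta2 these sums overlapped, at 22.0 to 24.2 FPKM in FSH and FBS cells and 14.9 to 30.6 FPKM in untreated cells, and the median log2 fold change of the list was 0.13. Ptch1 was higher in every FSH and FBS library than in any untreated one and did not pass (log2 fold change 1.08; limma adjusted p = 0.306). Dcn, which was not tested, was unlisted in all 3 FSH and FBS libraries. It had 7.86, 7.01 and 2.99 FPKM in untreated libraries 1, 2 and 3. Oocyte markers, with 10 of 15 listed, summed to 2.53, 3.12 and 14.1 FPKM in FSH and FBS libraries 1, 2 and 3, against 16.9, 17.7 and 21.6 FPKM in untreated libraries 1, 2 and 3. In FSH and FBS libraries 1 and 2 most of the sum was Kit, at 2.27 and 2.97 FPKM. Kit was unlisted in FSH and FBS library 3 and had 0.600 to 1.72 FPKM in untreated cells. Gdf9 had 0.260, 0.157 and 8.77 FPKM in FSH and FBS libraries 1, 2 and 3, against 4.16 to 6.06 FPKM in untreated cells. Leukocyte markers other than Cd79a, whose ID was unlisted in untreated library 2, summed to 2.96 to 7.50 FPKM in FSH and FBS cells and 9.11 to 12.6 FPKM in untreated cells. Where listed, Cd79a was nearly all of the full list sum. It had 198.7, 200.2 and 332.5 FPKM in FSH and FBS libraries 1, 2 and 3, and 443.3 and 459.7 FPKM in untreated libraries 1 and 3. Ptprc was listed only in FSH and FBS library 1, at 0.005 FPKM, and Cd74 and Cd3e were unlisted in all 6 libraries. Whether the signal under the Cd79a ID comes from another gene was not tested, so it is not read as leukocyte RNA. The calls of Clu, Krt8 and Acta2 were lost without untreated library 3. The part of theca, stroma, oocyte and leukocyte material in the lower Wt1, Gata6 and Amhr2 values was not tested.

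The genes whose profile over the 6 libraries was nearest to a member were found by the Euclidean distance between log2(FPKM + 1) values, each centred on its own mean, among 6756 genes. Among the nearest to Wt1 were Ptprz1, a receptor phosphatase gene, at 0.46 and Rnase4, a secreted ribonuclease gene, at 0.47. Rnase4 had 21.56, 21.61 and 14.7 FPKM in FSH and FBS libraries 1, 2 and 3, against 145.95, 146.6 and 99.6 FPKM in untreated libraries 1, 2 and 3, low in library 3 of each group as Wt1 was. Nearest to Nr5a2 were H6pd, Extl2 and Slc33a1 at 0.21 to 0.22, and nearest to Nr5a1 were Zfand3, Ipo13 and Nol9 at 0.049 to 0.11. Zscan26, Zc3h7b and Tbl1x lay nearest to Gata4 at 0.13 to 0.18, Srbd1, Pygb and Exoc4 nearest to Gata6 at 0.15, and Thumpd2, Pcgf1 and Pram1 nearest to Amhr2 at 0.26 to 0.39.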

How the data were processed

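RNA of cumulus cells was sequenced in 6 libraries; small-RNA libraries were not used here. The values deposited by the authors are FPKM per transcript event, per the file headers, with no event at 0. The aligner was HISAT2 2.0.1, per the submitters' processing notes. Build and assembler are not given in the sources used here. A gene was given the larger of 2 sums, of its first-exon or of its last-exon FPKM, and unlisted genes were missing, not 0. Symbols matched 13281 of 13318 IDs.

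Genes that every library listed and that averaged 1 FPKM or more were tested with limma 3.58.1 in R 4.3.3 (intensity trend, two-sided) on log2(FPKM + 1), with libraries 1 and 2 of a group averaged and Benjamini-Hochberg adjustment at 0.05. Shares of splice forms are FPKM of a form over that of the matched forms, unlisted forms as 0. Tables were joined in Python 3.11.15. The members and gene lists were chosen with earlier results of these data known. Named were all 8 members, list genes that passed, up to 4 more per main list by smallest adjusted p, 3 nearest profiles per member, and others where their values are given beside a result, chosen after values were seen. A few genes under this rule are not reported here. Alternatives were other pseudocounts, filters, scalings, exon sums, treatment of unlisted genes, the replicate block and each library left out. Esr2 by position was added after seeing the data.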

Additional observations from a re-analysis of the deposited data

How the results depend on the processing

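The 214 genes called became 1323 with 6 separate libraries, 104 with equal sums, 89 by median of ratios and 62 with first-exon sums only, and 115 to 343 with 1 library left out (the lowest without untreated library 3, the highest without FSH and FBS library 3). Of the calls 71.0% were higher, against 56.7% with equal sums, 53.9% by median of ratios and 56.5% under quantile normalization. Equal sums took the median of all genes from 0.24 to -0.02 and median of ratios took it to 0.005.

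The 1 member called, Wt1, stayed the 1 call when library 1 or 2 of either group was left out, which keeps 2 samples in each group. Without a library 3, which leaves 1 sample in its group, the Wt1 log2 fold change was -2.40 (FSH and FBS) or -3.07 (untreated). The count was 2 with 6 separate libraries. It was 0 in limma at a mean of at least 5 FPKM and with last-exon sums only, where Wt1 was not tested, and 0 with equal sums, by median of ratios, with first-exon sums only and with unlisted genes as 0, and in these 6 settings 1 to 4 members had an unadjusted p under 0.05, as did 11.8% to 17.7% of all genes. Over all alternatives run the Wt1 log2 fold change ran from -4.88 to -2.40 and its limma adjusted p up to 0.126. Signs turned for Nr5a1 under quantile normalization (-0.064) and for Gata4 with 6 separate libraries (0.078), without FSH and FBS library 3 (0.52; lowest with 1 library left out -0.25) and without untreated library 2 (0.014). No sign turned for Nr5a2 (0.16 to 1.29), Gata6 (-0.90 to -0.33), Amhr2 (-1.02 to -0.44) or joined Esr2 (-2.32 to -1.06). The causes were not tested. The untreated share of Wt1 with KTS was 63.1% to 72.7% and that with exon 5 was 22.9% to 54.5% with 1 library left out.

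The labels give both groups the replicate numbers 1 to 3. Deviations of same-numbered libraries correlated at 0.32, 0.31 and 0.51 over 9022 genes, but with libraries 1 and 2 counted as 1 sample only 2 pairs remain, so the numbers were not taken as pairs. With the replicate block the genes called were 1316 (2100 with 6 libraries) and the members called 2, Wt1 and Nr5a2 (4 with 6 libraries, Gata6 and Amhr2 being added, and Gata4 at 0.078), and joined Esr2 passed (limma adjusted p = 0.00239). No counts are held, so depth and counting error could not be judged.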

Other observations

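Of 30 nuclear receptors of other families, 17 were tested and 0 passed (limma; 1 higher and 3 lower at an unadjusted p under 0.05, which 16.4% of all genes tested reached), with a median log2 fold change of 0.13. Rora, which encodes a retinoid-related orphan receptor, had 9.12, 8.32 and 8.41 FPKM in FSH and FBS libraries 1, 2 and 3, against 2.64, 2.56 and 0.576 FPKM in untreated libraries 1, 2 and 3, and its log2 fold change of 2.0 did not pass (limma adjusted p = 0.0754). Thra, the thyroid hormone receptor alpha gene, had 15.8, 15.8 and 13.4 FPKM in FSH and FBS libraries 1, 2 and 3, against 32.0, 34.2 and 34.3 FPKM in untreated libraries 1, 2 and 3 (log2 fold change -1.16; limma adjusted p = 0.144). Both genes were singled out after their values were seen.

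Among GATA and forkhead relatives 10 of 20 were tested, Gata4 and Gata6 among them, and 0 passed (limma; 0 higher and 1 lower at an unadjusted p under 0.05, against 16.4% of all genes). Gata1, Gata2, Gata3 and Gata5 were unlisted in all 6 libraries. Foxo1, a forkhead factor of growing follicles, had 19.0, 19.0 and 12.8 FPKM in FSH and FBS libraries 1, 2 and 3, against 51.3, 50.4 and 26.6 FPKM in untreated libraries 1, 2 and 3, with no overlap and no call (log2 fold change -1.19; limma adjusted p = 0.23).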
